A study of Homo sapiens with 12 samples.

Results

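Alternative 3′ splice sites that lie more than 3 nt apart were followed in A549, an established line from a human lung adenocarcinoma, after depletion of RNF113A, after Cisplatin, and after both. An event is a pair of acceptors at 1 exon, joined to the same upstream exon, and its members were chosen by distance and depth: the long and the short form of the exon differ by more than 3 nt, and at least 10 reads cover the event in each of the 6 libraries of a comparison. There were 4681 such events in 2775 genes, of 6437 alternative 3′ splice site events in the tables, and 3362 of them were measured in all 4 comparisons. A further 598 events with enough reads were exactly 3 nt apart and 24 were closer, and both were left out of the members. The closest members, 122 events, were 4 nt apart.

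All 4 groups came from A549 cells infected with a lentivirus and selected with puromycin at 1 µg/ml for 4 days, so the control cells carry a vector too. Control cells received a control shRNA (shControl) and depleted cells an shRNA against RNF113A (shRNF113A), and each was left untreated or exposed to Cisplatin at 25 µg/ml for 20 h by the labels, where the study's methods give the dose in µM. Each group held 3 libraries. All depleted libraries carry the same shRNA name, so an effect of depletion cannot be told apart from another effect of that shRNA. The design text calls the replicates biological, and the labels do not say whether they came from separate infections. The epithelial keratins KRT8 and KRT18 were at 1940 and 1400 CPM (counts scaled to the size of the library) or more in all 12 libraries, and the leukocyte marker PTPRC did not pass the filter on low counts.

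RNF113A is a RING-type ubiquitin ligase found in the spliceosome, and Cisplatin is a platinum drug that crosslinks DNA.

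A 3′ splice site is the end of an intron, almost always an AG dinucleotide behind a run of pyrimidines. The large subunit of U2AF binds the pyrimidines and the small subunit the AG, the U2 snRNP with SF3B1 binds the branch point, and factors of the second catalytic step then join the exons. Where 2 AGs compete, the choice of the upstream one lengthens the exon at its 5′ end, and the choice of the downstream one leaves that stretch in the intron. The stretch between both sites is called the extension here. The inclusion level is the share of transcripts with the extension, computed from reads of the long and of the short form after division by the length from which each form can draw reads. Any read within the extension counts for the long form, also a read from an unspliced intron, and reads of the junctions alone were not used here.

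The sites of 9 events that later results turn on are shown here, because the 2 competing acceptors of an event differ in their letters. Each window holds the last 20 intronic bases and the first 3 exonic ones on the strand of the gene, 5′ to 3′, from hg19, with the AG in capitals. The 2 events of U2AF1L4 share their downstream site, which is printed once.
RPL22L1 upstream, chr3:170585988-170586010, minus strand: aacctaagctctattcctAGggt
RPL22L1 downstream, chr3:170585921-170585943, minus strand: ttttttctgttttaaaatAGgag
ZNF473 upstream, chr19:50534129-50534151, plus strand: gttgttgttgtcccctgcAGgga
ZNF473 downstream, chr19:50534251-50534273, plus strand: ctcccttgtgcttcccacAGccc
RPS9 upstream, chr19:54710401-54710423, plus strand: tgtccctatctcctatgcAGccc
RPS9 downstream, chr19:54711246-54711268, plus strand: caccttgtcgcttcttccAGggt
SRSF5 upstream, chr14:70236208-70236230, plus strand: ttaaaccctttatttgccAGcct
SRSF5 downstream, chr14:70237164-70237186, plus strand: cacaattatcttgtgttaAGgat
PCBP2 upstream, chr12:53853564-53853586, plus strand: gtctcactctgtctccccAGgct
PCBP2 downstream, chr12:53854779-53854801, plus strand: aatttctttttactccaaAGagt
SNRPB upstream, chr20:2442583-2442605, minus strand: acttcttactcttacttcAGgcc
SNRPB downstream, chr20:2442437-2442459, minus strand: ttgtctggtttcccttacAGggc
C1orf63 upstream, chr1:25570713-25570735, minus strand: atatatgcaatatattccAGatg
C1orf63 downstream, chr1:25570122-25570144, minus strand: ctttttcttaacctgtctAGctg
U2AF1L4 upstream of the 317 nt extension, chr19:36235637-36235659, minus strand: ctcactctctgttcatgcAGccc
U2AF1L4 upstream of the 560 nt extension, chr19:36235880-36235902, minus strand: ctcattggacctttctgcAGgct
U2AF1L4 downstream of both, chr19:36235320-36235342, minus strand: ttcctccccgtcttccacAGgag

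Over all members, the upstream site ended in AG in 4648 of 4681 events and the downstream site in 4678. The extension had a median length of 62 nt, with quartiles at 27 and 177 nt and a longest value of 6299 nt. Its length was a multiple of 3 in 1905 members, or 40.7%. It held coding sequence in 3924 members, 5′ UTR only in 244, 3′ UTR only in 129, and in 341 it lay in an exon without coding sequence. Introns and further exons can lie in the longer extensions: an annotated donor was inside 992 of them, and 1253 overlapped an event of the intron retention table.

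The letters of both sites were scored against the base frequencies of 209026 annotated acceptors, in log2 units over equal base shares. In the untreated control libraries the median inclusion level was 96.2% in the 2257 members whose upstream site scored higher, and 22.8% in the 1732 members whose downstream site scored higher. It went from 1.67% in the 279 members whose upstream site scored lower by over 8 units to 97.8% in the 258 members whose upstream site scored higher by over 8 units. The middle classes were wide, with quartiles at 5.95% and 98.7% where the upstream site scored lower by up to 2 units. The acceptors of the members are themselves among the annotated ones, and this relation is given as a description. Of the 9 events printed above, the upstream site scored higher in SRSF5 (6.86 against 3.8), ZNF473 (10.68 against 8.79) and PCBP2 (10.3 against 9.36), and the downstream site in the other 6, among them RPL22L1 (5.49 against 9.77) and RPS9 (7.95 against 11.13). Most members used 1 site nearly alone: 1969 of 3989 had inclusion over 90% and 1135 had 10% or less.

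**Figure D1:**
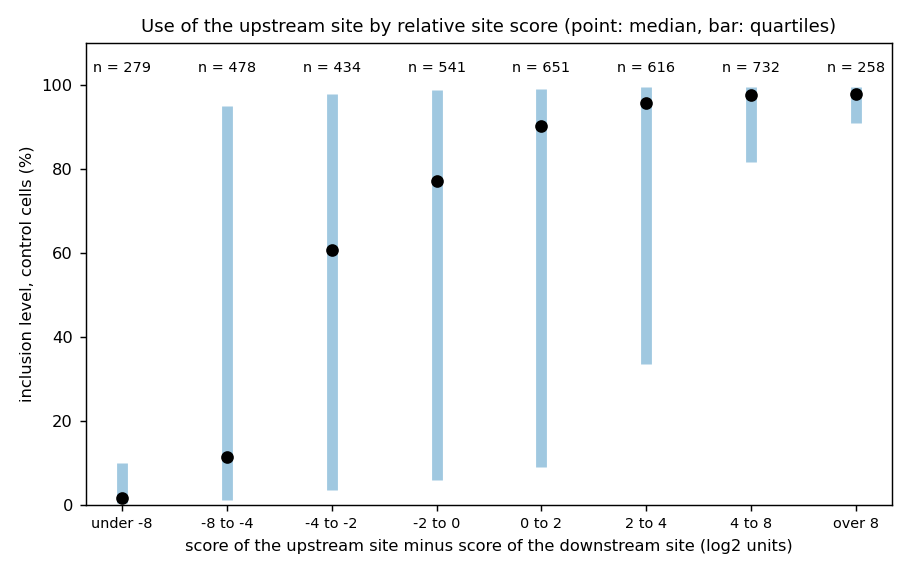
Inclusion level in untreated control cells (%, vertical axis) in 8 classes of the upstream minus the downstream site score (log2 units, horizontal axis). Points are medians over members, bars run between the quartiles, and n is the number of members. The median goes from 1.67% in the lowest class to 97.8% in the highest.

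The libraries held between 26220526 and 45721152 read pairs on genes. RNF113A itself was at 19.5 to 20.3 CPM in untreated control cells and at 15.3 to 16.8 in untreated depleted cells, and these groups did not overlap. Its log2 fold change was -0.31 (SE 0.09, adjusted p = 0.0247, edgeR). With Cisplatin it was at 27.7 to 31.5 CPM in control cells and at 24.3 to 29.9 in depleted cells, which overlapped, and the log2 fold change of -0.14 (SE 0.09) had an adjusted p of 0.233. The share of read pairs that fell on no annotated exon was 4.55% to 4.9% in untreated control cells, 4.6% to 6.78% in Cisplatin-treated control cells, 5.4% to 6.42% in untreated depleted cells and 9.05% to 9.62% in Cisplatin-treated depleted cells. This share moves with the groups compared here, and its part in the results below was not tested.

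Depletion and Cisplatin were each compared at both levels of the other factor, always with 3 libraries against 3. An event passed at an adjusted p under 0.05, from edgeR's quasi-likelihood test of inclusion against skipping reads, adjusted over all alternative 3′ splice site events of the comparison, and it was called where the mean levels also lay at least 20 percentage points apart. Most events that passed with edgeR had gained the long form, and the counts were larger where Cisplatin and depletion came together. Members make up most of the events tested, so the share over all events stands beside each count, and none of the 523 to 552 events of exactly 3 nt passed with edgeR, DESeq2 or limma in any comparison (8 to 18 at an unadjusted p under 0.05 with edgeR).

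Cisplatin in control cells raised inclusion in 18 of 4025 members and lowered it in 7, against 0.393% and 0.153% of all 4579 events tested. In depleted cells, Cisplatin raised it in 86 of 4024 members and lowered it in 27, against 1.88% and 0.591% of 4566 events. Depletion raised inclusion in 33 of 3989 members of untreated cells and lowered it in 4, against 0.725% and 0.0878% of 4554 events. Depletion in Cisplatin-treated cells raised it in 105 of 4110 members and lowered it in 20, against 2.25% and 0.429% of 4665 events. At an unadjusted p under 0.05 there were 302, 489, 340 and 484 members, in the same order. Left without any 1 of the 6 libraries, the counts past adjusted p lay between 13 and 21, 63 and 89, 9 and 26, and 59 and 118, below the full count in every case. Called members numbered 3, 8, 4 and 11, where 0.0655%, 0.175%, 0.0878% and 0.236% of all events were called.

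The level of most members did not move far. The median difference over all members was 0.0202 percentage points for Cisplatin in control cells, 0.043 in depleted cells, and 0.132 for depletion in both untreated and Cisplatin-treated cells, where the median SD between libraries of the first group was 1.14 to 1.21 points. Among those that passed, 53 of 125 differed by less than 5 points upon depletion in Cisplatin-treated cells, and 59 of 113 upon Cisplatin in depleted cells. The 2 groups of libraries did not overlap in 118 of these 125 members, whereas 15.8% of all members did not overlap in that comparison. The corresponding counts were 110 of 113 for Cisplatin in depleted cells, 35 of 37 for depletion in untreated cells and 25 of 25 for Cisplatin in control cells, with 16.5%, 12.7% and 12.9% of all members.

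The tools differed on how many events pass. The edgeR fit took the spread of an event from a trend over all events, with an infinite prior weight and a median dispersion of 0.0105 to 0.0176. An event's own scatter therefore does not enter its p. DESeq2, with a median dispersion of 0.142 to 0.147, passed 2, 7, 0 and 7 members, of which 2, 6, 0 and 3 were higher and 0, 1, 0 and 4 lower (134, 226, 126 and 238 at an unadjusted p under 0.05). A limma fit on the log2 ratio of the reads of both forms in each library, chosen after these counts were seen, passed 61, 169, 69 and 199 members and held 25 of the 25, 106 of the 113, 36 of the 37 and 121 of the 125 that passed with edgeR.

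**Figure D2:**
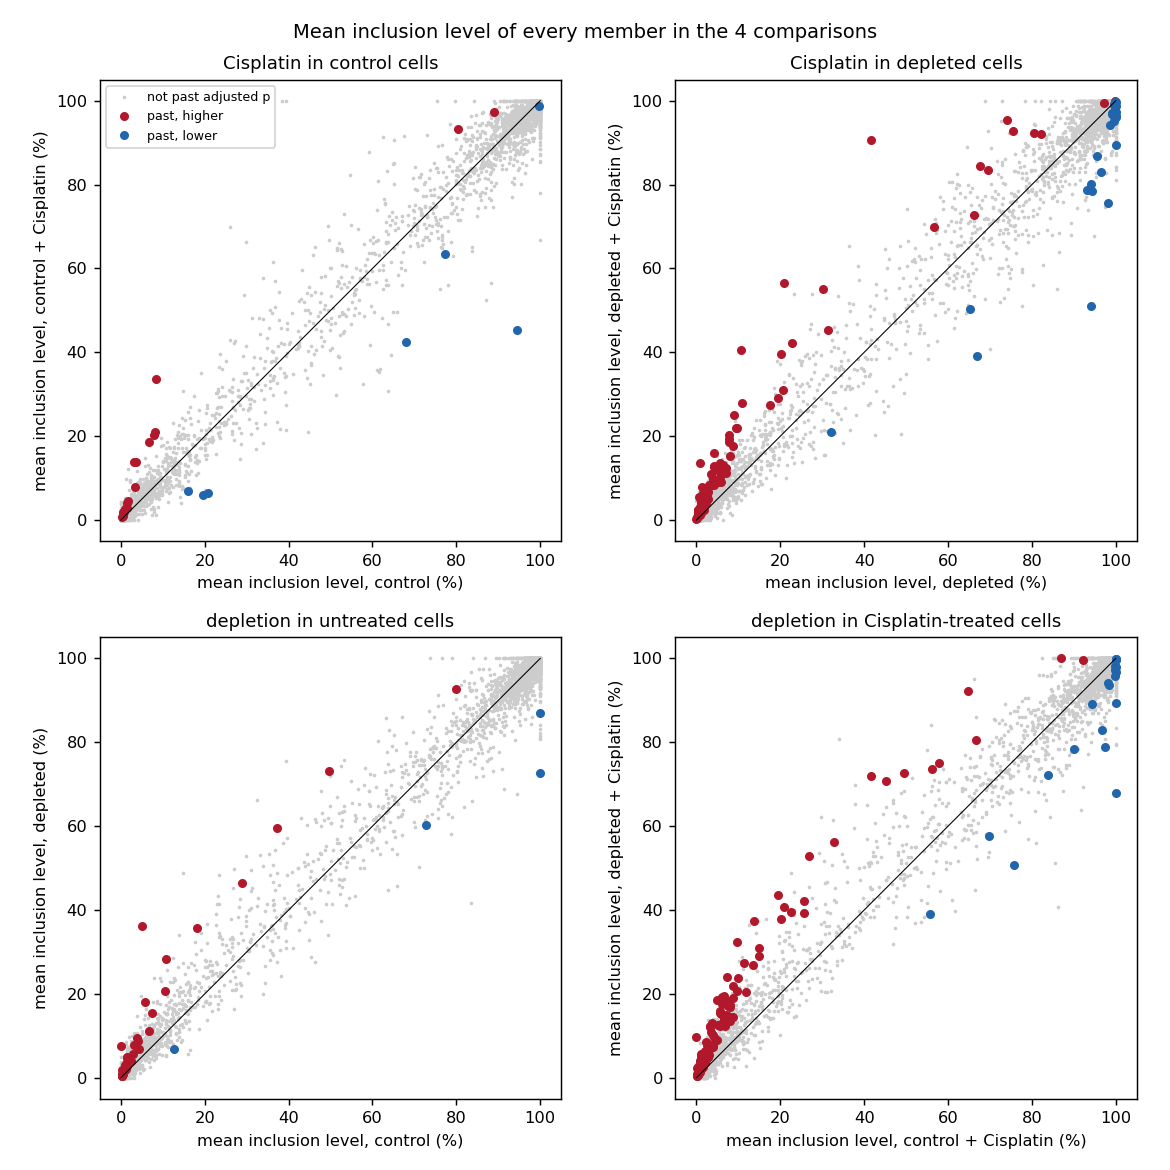
Mean inclusion level (%) of every member in the first group (horizontal axis) and the second group (vertical axis) of the 4 comparisons, 3 libraries a group. Red and blue points passed with higher and lower inclusion in the second group, grey points did not pass, and the line marks equal levels. Most red points sit near 0% and most blue points near 100% or below the line at high levels.

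Rises came mainly at members whose extension was included at up to 50%. Upon depletion in Cisplatin-treated cells, those with higher inclusion had a median level of 4.93% in control and 12.4% in depleted cells, and those with lower inclusion went from a median of 99.1% to 91.6%. Of the 1057 members with a mean level of up to 10% over the 6 libraries, 58 rose and 0 fell with edgeR, or 5.49%. Of the 443 members between 10% and 50%, 38 rose and 1 fell, or 8.8%. Of the 2073 members over 90%, 2 rose and 12 fell, and between 50% and 90% 7 rose and 7 fell, of 537. A level near 0% leaves room mainly for a rise and a level near 100% mainly for a fall. Upon Cisplatin in depleted cells the picture was alike, with 56 rises and 0 falls of 1050 members up to 10%, 19 rises and 1 fall of 432 between 10% and 50%, and 2 rises and 18 falls of 2022 members over 90%. In control cells the 7 members that fell with Cisplatin started from a median of 67.9%.

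Distance went along with the share that passed. None of the members 4 to 12 nt apart passed with edgeR or DESeq2 in any comparison, where 395 to 414 were tested and 14 to 20 had an unadjusted p under 0.05 with edgeR. With limma, 3 of them passed for Cisplatin in control cells and 0 elsewhere. Upon depletion in Cisplatin-treated cells 0.73% passed between 13 and 50 nt, 3.92% between 51 and 200 nt, 7.14% above 200 and up to 1000 nt and 4.37% above 1000 nt. Upon Cisplatin in depleted cells the shares were 1.04%, 3.21%, 5.49% and 8.82%. Depth differs between these classes: the median of the lowest read number per library was 83 for members 4 to 12 nt apart and 318 for those above 1000 nt in the first of these comparisons, since a longer extension draws more reads. The starting level differs too: its median in that comparison was 97.5%, 36.2%, 88.5%, 97.5% and 96.6% from the closest to the widest class. The part of depth and of level in the trend was not tested.

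**Figure D3:**
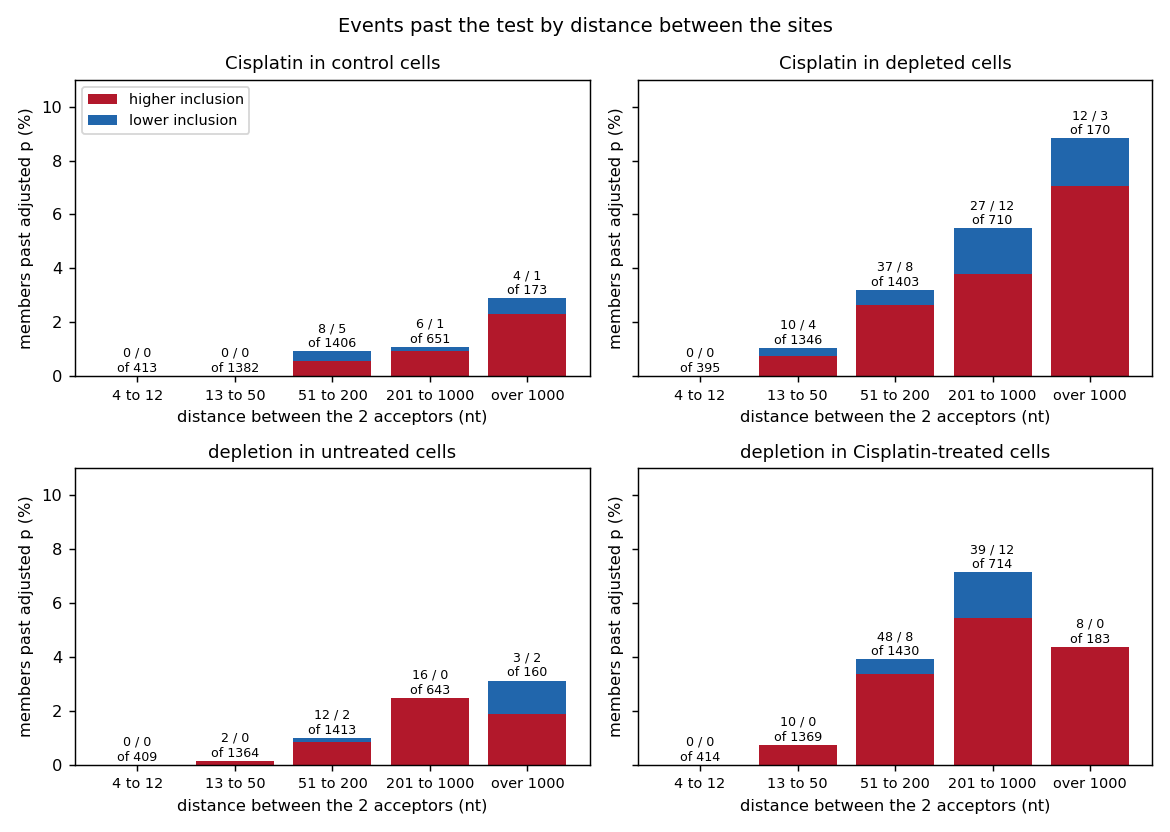
Share of members past adjusted p (%, vertical axis) in 5 classes of distance between the acceptors (nt, horizontal axis) in the 4 comparisons. Red and blue parts had higher and lower inclusion in the second group, and the numbers above a bar give higher / lower and the members in the class. No bar stands at 4 to 12 nt, where 0 of 395 to 414 members passed.

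Among the members that passed upon depletion in untreated cells, SRSF5, RPS9 and C16orf13 had more of the long form and SNRPB had less. SRSF5 encodes an SR protein that binds exonic enhancers, and its extension of 956 nt (chr14:70236228-70237183, plus strand) holds an annotated donor and overlaps an intron retention event. Its inclusion level was 9.98%, 9.87% and 11.6% in control cells and 20.3%, 21.4% and 20.3% in depleted cells. No depleted library came near a control library. The rise was 10.2 points (log2 odds 1.16, SE 0.18, adjusted p = 6.79e-07).

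RPS9, a protein of the small ribosomal subunit, has an extension of 845 nt (chr19:54710421-54711265, plus strand) that overlaps an intron retention event. Inclusion was 54.6%, 45.4% and 49.2% in control cells and 73.6%, 69.8% and 76.2% in depleted cells, from 49 to 59 and 27 to 49 skipping reads a library. The groups were apart by 23.5 points (log2 odds 1.45, SE 0.26, adjusted p = 6.3e-05), and RPS9 was called. With Cisplatin, control cells stood at 60.2%, 69.7% and 70.1%, above all untreated control libraries but not past the test (16.9 points, adjusted p = 0.0652, edgeR). A second event with the same extension and another upstream exon went from 0.984% ± 0.177 to 1.75% ± 0.211 (SD, n = 3, adjusted p = 0.00149). Both draw on the same reads within the extension.

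SNRPB, which encodes the Sm proteins B and B′ of the spliceosomal snRNPs, moved the other way. Its extension of 146 nt (chr20:2442440-2442585, minus strand) was included at 72.2%, 75% and 70.8% in control cells and at 60.6%, 61.6% and 58.6% in depleted cells. The untreated libraries gave 4581 to 6385 inclusion reads and 700 to 1070 skipping reads, and no library of one group reached the other. The fall was 12.4 points (log2 odds -0.81, SE 0.18, adjusted p = 0.00265). In Cisplatin-treated cells it went from 68.8%, 69.9% and 70.5% to 56.7%, 60.8% and 55.7%, a difference of -12.0 points (adjusted p = 0.0103).

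C16orf13 has an extension of 107 nt (chr16:684957-685063, minus strand) in 2 events that differ in the upstream exon and share reads. The better covered one rose from 32%, 26.4% and 28.5% to 45.1%, 49.8% and 44.5% (adjusted p = 0.00111), and in Cisplatin-treated cells it was at 37%, 35.5% and 27.1% in control and 40.4%, 45.9% and 39.8% in depleted cells (adjusted p = 0.35). The other went from 80.0% ± 6.61 to 92.6% ± 2.42 (SD, n = 3, adjusted p = 0.0476). Left without 1 library in turn, SRSF5 and the called RPS9 event passed in all 6 cases, and SNRPB missed the threshold in 3 (adjusted p up to 0.113) and the C16orf13 events in 1 and 5 (up to 0.0635 and 0.652).

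The other members called upon depletion in untreated cells rest on thin or overlapping values. CACNA2D1, a subunit of voltage-gated calcium channels, with 15 nt, went from 10.2%, 4.92% and 0% to 24.3%, 24.5% and 59.8%, with 0 to 18 inclusion reads a library (adjusted p = 0.0427). ST6GALNAC4, a sialyltransferase, with 470 nt, was at 31.6%, 18.6% and 61.2% in control and 61.2%, 47.6% and 70% in depleted cells, so that the groups overlapped (adjusted p = 0.0111). PFKL, the liver phosphofructokinase, with 2331 nt, had 0 skipping reads in all 3 control libraries and 5, 0 and 7 in depleted cells, and its level of 100% against 64.3%, 100% and 53.8% overlapped too (adjusted p = 0.0454, and 0.236 with limma). Without 1 library, CACNA2D1 lost its call in all 6 cases, PFKL in 5 and ST6GALNAC4 in 4.

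In Cisplatin-treated cells depletion called 9 rises and 2 falls. The largest rise was in U2AF1L4, a paralogue of the small U2AF subunit that reads the AG of 3′ splice sites. Its extension of 560 nt (chr19:36235323-36235882, minus strand) was included at 35%, 42% and 47.6% in control and at 68.1%, 73.4% and 74.1% in depleted cells. The lowest depleted library was well above the highest control library, and the difference was 30.3 points (log2 odds 1.83, SE 0.34, adjusted p = 1.1e-05). A second upstream site with a 317 nt extension shared the skipping reads, 17 to 49 a library, and went from 38%, 45.6% and 51.6% to 66.1%, 75% and 71.6% (25.8 points, adjusted p = 0.000668). Both extensions hold an annotated donor and overlap an intron retention event, so reads of a retained intron can count for the long form. In untreated cells the 560 nt event was at 48.8%, 54% and 41.2% in control and 64.6%, 66.7% and 57.9% in depleted cells, apart but not past the test (adjusted p = 0.323).

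SIRT2, D2HGDH, HMG20B and PFDN5 were called as well. SIRT2, a deacetylase, with 104 nt, was at 23.2%, 24.7% and 32.5% in control and 46.8%, 47.1% and 64.8% in depleted cells (26.1 points, adjusted p = 0.0152). D2HGDH, a mitochondrial dehydrogenase, with 804 nt in the 3′ UTR, was at 10.8%, 10.7% and 19.8% in control and 35.2%, 28.8% and 48.4% in depleted cells (23.7 points, adjusted p = 0.00029). HMG20B, a chromatin protein, with 42 nt, was at 8.06%, 5.25% and 15.5% in control and 35.6%, 38.7% and 22.8% in depleted cells (22.8 points, adjusted p = 0.00721). In each of these the lowest depleted library stood above the highest control library. PFDN5, a prefoldin subunit, with 1420 nt and 10 to 28 skipping reads, was at 40.8%, 52.9% and 54.9% in control and 77%, 77% and 64.3% in depleted cells (23.3 points, adjusted p = 0.0162). Without 1 library, D2HGDH and both U2AF1L4 events passed in all 6 cases, and SIRT2 and PFDN5 lost the call in 3 and HMG20B in 4.

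Other called members upon depletion with Cisplatin were PRICKLE4 and ST6GALNAC4, which rose, and RNF181 and ADAMTS7, which fell. PRICKLE4, with 397 nt, was at 73.4%, 58.9% and 61.6% in control and 94.8%, 95.9% and 86% in depleted cells, from 5 to 13 and 1 or 2 skipping reads (27.6 points, adjusted p = 0.0103). ST6GALNAC4 was at 28.5%, 21.6% and 48% in control and 58.1%, 63.3% and 47.3% in depleted cells, which overlapped (adjusted p = 0.0225). RNF181, a ubiquitin ligase, with 341 nt, had 0 skipping reads in the 3 control libraries and 9, 5 and 5 in the depleted ones, or 100% against 57.9%, 70.9% and 74.5% (adjusted p = 0.00257). ADAMTS7, a secreted metalloprotease, with 76 nt, went from 70.3%, 85.4% and 71.4% to 55.1%, 59.9% and 36.9% (-25.1 points, adjusted p = 0.03). Without 1 library, RNF181 passed in all 6 cases, and PRICKLE4 lost the call in 3 and ST6GALNAC4 and ADAMTS7 in 4.

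The 2 depletion comparisons share no library. Of the 37 members that passed in untreated cells, 24 also passed in Cisplatin-treated cells, which is 64.9% of the first set and 19.2% of the 125 of the second, and all 24 had the same sign. Of the 121 that passed with Cisplatin and were measured without it, 111 differed in the same direction there, against 58.8% of all 3488 members measured in both. The 2 Cisplatin comparisons share no library either, and 15 members passed in both, or 60.0% of 25 and 13.3% of 113, all with the same sign.

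**Figure D4:**
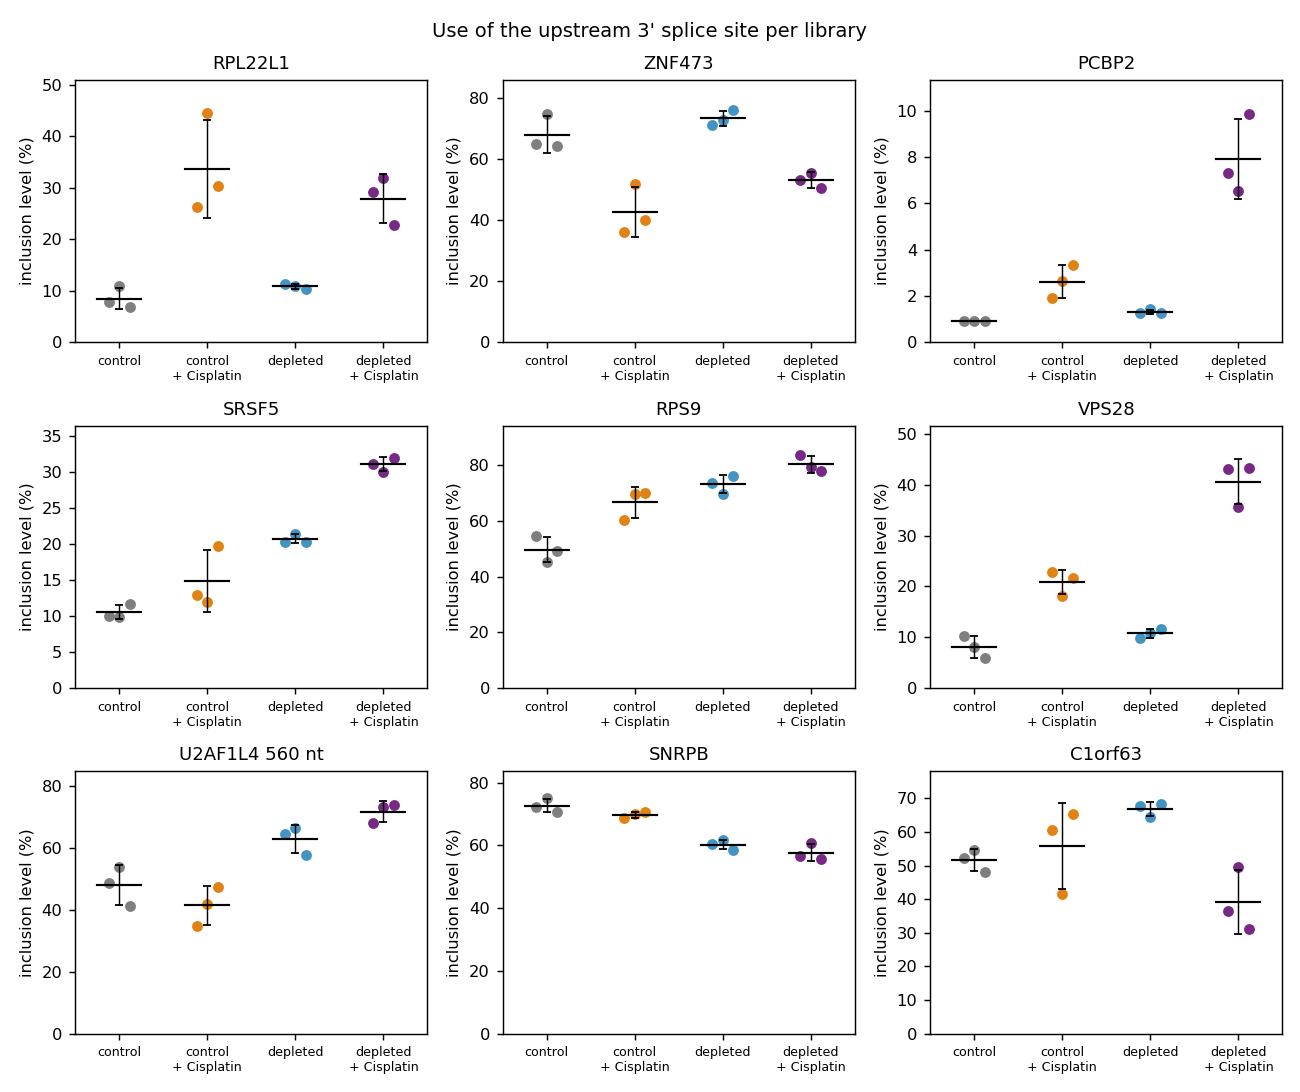
Inclusion level (%) of 9 members in the 12 libraries, 3 for each group on the horizontal axis; points are libraries, long bars means and thin bars SD. RPL22L1, ZNF473 and VPS28 split by Cisplatin and SRSF5 and SNRPB by depletion. RPS9 is lowest in untreated control cells, and its Cisplatin-treated control and untreated depleted libraries overlap. PCBP2 stands at 6.55% to 9.86% with both, above its 0.894% to 3.33% elsewhere.

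Cisplatin raised RPL22L1, a paralogue of the ribosomal protein RPL22, in both kinds of cells, and it was the only called rise in control cells. Its extension of 67 nt in coding sequence (chr3:170585924-170585990, minus strand) was included at 7.81%, 10.8% and 6.77% in untreated and at 26.2%, 44.4% and 30.3% in Cisplatin-treated control cells. All treated libraries lay well above the highest untreated one, and the rise was 25.2 points (log2 odds 2.44, SE 0.26, adjusted p = 1.14e-17). In depleted cells it went from 11.2%, 10.9% and 10.3% to 29.1%, 31.8% and 22.7% (17.1 points, adjusted p = 6.46e-13). Neither depletion comparison passed (adjusted p = 0.682 and 0.678).

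ZNF473, a zinc finger protein that takes part in histone pre-mRNA processing, has an extension of 122 nt in the 5′ UTR (chr19:50534149-50534270, plus strand). It fell from 64.7%, 74.8% and 64.3% to 36.1%, 51.6% and 40% in control cells (-25.4 points, log2 odds -1.51, SE 0.42, adjusted p = 0.0485). In depleted cells it was at 71.1%, 72.8% and 76% without and at 53.2%, 55.4% and 50.3% with Cisplatin, which did not overlap and missed the threshold (-20.3 points, adjusted p = 0.054). The call in control cells was lost in 5 of 6 cases without 1 library (adjusted p up to 0.455). SREK1, an SR-related regulator, with 2744 nt, had the largest difference in control cells, from 100%, 83.6% and 100% to 45.6%, 18.1% and 72.2% (adjusted p = 0.000625). It rests on 0 or 1 skipping reads in untreated and 7 to 26 in treated libraries, and was lost in 2 of 6 cases without 1 library. In depleted cells the same event was at 66.1%, 66.2% and 70.4% without and 64.9%, 69.9% and 58.9% with Cisplatin. The interaction of Cisplatin and depletion, tested below, did not pass for this event (adjusted p = 0.126, edgeR).

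DDIT3, the stress-induced transcription factor CHOP, and FAM211A-AS1, a noncoding transcript, also fell in control cells. The 157 nt extension of DDIT3 went from 18%, 18.5% and 26.2% to 6.78%, 4.58% and 8.31% (-14.3 points, adjusted p = 1.61e-06). In depleted cells it was at 19.3%, 25.8% and 27% without and 16.9%, 14.7% and 26.8% with Cisplatin (adjusted p = 0.705), and with Cisplatin it was higher in depleted than in control cells by 12.9 points (adjusted p = 1.78e-07). The interaction of Cisplatin and depletion did not pass for DDIT3 (adjusted p = 0.302, edgeR). FAM211A-AS1, with 53 nt, went from 75.6%, 78.5% and 77.7% to 66.1%, 60% and 63.9% in control cells (-13.9 points, adjusted p = 0.0066), and missed the threshold in 3 of 6 cases without 1 library.

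In depleted cells Cisplatin called 5 rises and 3 falls. VPS28, a subunit of the ESCRT-I complex of endosomal sorting, had an extension of 312 nt in the 5′ UTR on chromosome 8. It was at 9.85%, 10.8% and 11.6% without and 43.1%, 35.6% and 43.3% with Cisplatin (29.9 points, adjusted p = 1.42e-28). In control cells it went from 10.2%, 8.08% and 5.88% to 22.9%, 18.2% and 21.6% (12.9 points, adjusted p = 9.68e-07). The treated libraries stood above all untreated ones in both kinds of cells, and higher with depletion, by 19.7 points (adjusted p = 7.45e-06).

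The other called rises in depleted cells were in ANK1, IRF3, XRCC3 and ZUFSP. XRCC3, a protein of homologous recombination, has an extension of 94 nt in the 5′ UTR (chr14:104177905-104177998, minus strand) and was at 23.4%, 31.9% and 35% without and 53.3%, 48.8% and 63% with Cisplatin (25.0 points, adjusted p = 0.0255). IRF3, a transcription factor of the interferon response, with 16 nt, was at 28.4%, 20.5% and 14.1% and then at 49.5%, 47.2% and 72.7%, with 6 to 26 inclusion reads a library (adjusted p = 0.0058). The groups did not overlap in either. Both events were also higher with Cisplatin in control cells, again without overlap. The differences there were 16.9 points for XRCC3 and 15.5 for IRF3, not past the test (adjusted p = 0.264 and 0.804, edgeR). ANK1, a membrane skeleton ankyrin, with 486 nt, was at 37.6%, 43.6% and 43.6% and then at 100%, 83.9% and 88.1%, from 6 to 8 and 0 to 3 skipping reads (adjusted p = 0.00029). ZUFSP, a ubiquitin peptidase, with 295 nt, went from 74.3%, 84% and 63.6% to 96.9%, 94.8% and 94.7%, from 5 to 10 and 1 or 2 skipping reads (adjusted p = 0.00732). Control cells showed little change in ANK1 with Cisplatin (0.537 points, adjusted p = 0.86). Its untreated depleted libraries lay below all untreated control ones (-41.9 points, adjusted p = 0.384). ZUFSP differed by 8.62 points in control cells, with overlap (adjusted p = 0.624). None of these events passed the interaction test (adjusted p of 0.756 or more). Without 1 library, VPS28 and ANK1 passed in all 6 cases, and the call was lost in 5 for XRCC3 (adjusted p up to 0.259), in 3 for ZUFSP and in 2 for IRF3.

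The falls were in TRIM27, C1orf63 and DCAF13. C1orf63 encodes a protein rich in arginine and serine, and its 591 nt extension (chr1:25570125-25570715, minus strand) overlaps an intron retention event. It was at 67.8%, 64.5% and 68.3% without and 36.5%, 49.6% and 31.1% with Cisplatin, with 17 to 23 and 76 to 146 skipping reads. The groups were apart by -27.8 points (log2 odds -1.69, SE 0.27, adjusted p = 7.81e-08). TRIM27, a ubiquitin ligase, with 4175 nt, was at 100%, 82% and 100% without and 54.2%, 57.6% and 41.7% with Cisplatin, from 0 to 2 and 7 to 11 skipping reads (adjusted p = 0.00506). DCAF13, with 3515 nt, was at 100%, 100% and 94.5% and then at 71.6%, 78.4% and 76.7%, from 0 or 1 and 5 to 8 skipping reads (adjusted p = 0.0142). Both lost the call in 3 of 6 cases without 1 library, and C1orf63 in 0.

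Among 113 splicing regulators, 80 to 97 members in 43 to 47 genes were measured in a comparison. In Cisplatin-treated cells 5 of 92 rose upon depletion and 0 fell: both events of U2AF1L4, SRSF5, PCBP2 and a second event of SREK1 with 175 nt. Of all events, 2.25% rose and 0.429% fell in that comparison. In untreated cells 3 of 83 rose, SRSF5 and the 2 events of HNRNPC, and 0 fell, beside 0.725% and 0.0878% of all events. The events of HNRNPC share their skipping reads and have nested extensions, as do those of U2AF1L4, so these counts are not of independent events. At an unadjusted p under 0.05 there were 18 and 12 of the list, and limma passed 8 and 4 and DESeq2 0 in both. The list's median difference was 0.133 and 0.164 points, where all members had 0.132 in both. Cisplatin raised 1 and lowered 1 of 80 in control cells and raised 3 and lowered 1 of 97 in depleted cells, beside 0.393% and 0.153%, and 1.88% and 0.591%, of all events.

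PCBP2 binds poly(C) stretches in RNA, and its extension of 1215 nt (chr12:53853584-53854798, plus strand) holds an annotated donor. The level was 0.894%, 0.921% and 0.916% in untreated control, 1.89%, 2.63% and 3.33% in Cisplatin-treated control, 1.26%, 1.42% and 1.27% in untreated depleted and 7.33%, 6.55% and 9.86% in Cisplatin-treated depleted cells. Libraries with both treatments were the highest, and no 2 groups overlapped. Depletion with Cisplatin raised it by 5.29 points (log2 odds 1.69, SE 0.20, adjusted p = 3.4e-13, and 0.101 with limma), and Cisplatin in depleted cells by 6.59 points (adjusted p = 1.4e-84). There were 969 to 2606 skipping reads a library.

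SRSF5 also rose with Cisplatin in depleted cells, to 31.1%, 30% and 31.9%, by 10.3 points (adjusted p = 2.93e-06), and upon depletion in Cisplatin-treated cells by 16.2 points from 12.9%, 11.9% and 19.7% (adjusted p = 1.38e-08). HNRNPC, an hnRNP that binds uridine tracts, has 2 extensions in the 5′ UTR with a shared downstream site. The 493 nt one rose from 4.28% ± 0.313 to 6.82% ± 0.255 and the 246 nt one from 2.35% ± 0.26 to 3.91% ± 0.224 upon depletion in untreated cells (SD, n = 3, adjusted p = 0.0146 and 0.0128), and each missed the threshold in 4 of 6 cases without 1 library. MATR3, a nuclear matrix RNA-binding protein, rose from 5.2% ± 0.673 to a mean of 9.13% with Cisplatin in depleted cells (adjusted p = 0.00019). DDX39B, an RNA helicase that acts with U2AF, fell there by 1.97 points to 97.0% ± 0.791 (SD, n = 3, adjusted p = 0.000219).

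Of 111 translation factors and ribosomal proteins, 85 to 90 members were measured. In depleted cells Cisplatin raised 7 of 89 and lowered 7, beside 1.88% and 0.591% of all events, with small steps except in RPL22L1: RPL3 went from 0.597% ± 0.0752 to 2.11% ± 0.192 (adjusted p = 6.17e-30) and RPL13A, with 243 nt, from 99.7% ± 0.0299 to 98.2% ± 0.821 (adjusted p = 3.55e-14). EIF4G2, a translation initiation factor, fell from 99.9% ± 0.168 to 95.8% ± 2.37 (SD, n = 3, adjusted p = 6.43e-08). In Cisplatin-treated cells depletion raised 7 of 85 and lowered 4, beside 2.25% and 0.429% of all events. In untreated cells it raised 3 of 90 and lowered 0 with edgeR, beside 0.725% and 0.0878%. Cisplatin in control cells raised 2 and lowered 1 of 85, beside 0.393% and 0.153%. Several of these events share a gene, an extension or reads. Over the 4 comparisons as listed here, limma passed 12, 10, 4 and 6 members and DESeq2 2, 1, 0 and 1. The list's median differences were 0.016, -0.005, -0.004 and 0.032 points in this order, beside 0.043, 0.132, 0.132 and 0.02 for all members.

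Of 100 genes of DNA repair and damage signalling, 42 to 48 members in 28 to 31 genes were measured, and only XRCC3 upon Cisplatin in depleted cells passed, with edgeR and with limma, and 0 with DESeq2. At an unadjusted p under 0.05 with edgeR there were 1 and 6 upon Cisplatin in control and depleted cells, and 2 and 1 upon depletion in untreated and Cisplatin-treated cells. Of 49 apoptosis genes, 8 or 9 members in 7 or 8 genes were measured and 0 passed with edgeR, DESeq2 or limma in any comparison, with 0 or 1 at an unadjusted p under 0.05 with edgeR. The list of 42 factors of 3′ splice site choice held 18 to 23 members and shares genes with the splicing regulators. In control cells with Cisplatin and in untreated cells upon depletion 0 passed with edgeR, DESeq2 or limma (0 and 3 at an unadjusted p under 0.05 with edgeR). SUGP1, a G-patch protein of the branch point complex, rose from 6.21% ± 1.76 to 19.2% ± 1.73 upon depletion with Cisplatin (adjusted p = 0.00254) and from 7.75% ± 2.4 with Cisplatin in depleted cells (adjusted p = 0.042), and U2AF1L4 is the other gene of the list with events that passed.

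Whether the effect of depletion differs between untreated and Cisplatin-treated cells was tested in all 12 libraries. Of 3488 members 2 passed, PCBP2 and C1orf63, against 0.0501% of 3992 events, and 211 had an unadjusted p under 0.05, or 84 with DESeq2, which passed 0. Without 1 of the 12 libraries, 0 to 7 passed, and 0 without library a or c of untreated control, a of Cisplatin-treated control, a, b or c of untreated depleted, or a or c of Cisplatin-treated depleted cells. For PCBP2 the depletion effect was larger with Cisplatin by 4.89 points (log2 odds 1.15, SE 0.26, adjusted p = 0.032). For C1orf63 it was 15.3 points without (52.1%, 54.5% and 48% in control against 67.8%, 64.5% and 68.3% in depleted cells) and -16.7 points with Cisplatin, where control libraries were at 60.6%, 41.4% and 65.4%. These overlapped the Cisplatin-treated depleted libraries, at 36.5%, 49.6% and 31.1%. The difference between both effects was -32.1 points (log2 odds -1.89, SE 0.44, adjusted p = 0.032).

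The intron retention table gives a second readout of some of the same introns, on partly the same reads. For 27 of the members that rose upon depletion in Cisplatin-treated cells, the intron up to the downstream site was measured as a retention event, and its retention was higher in depleted cells in all 27, with a median difference of 10.4 points. For 2 members that fell it was lower in both. Over all 370 members with such an intron retention was higher in 273, with a median of 1.81 points, and over all 3541 retention events in 2925, with a median of 1.97. In untreated cells it was higher for all 6 such members that rose, with a median of 7.82 points. A read within the extension counts for the long form in one table and for retention in the other, so the 2 cannot be told apart in these counts. Where the extension overlapped no retention event, 67 of 3059 members rose and 7 fell upon depletion in Cisplatin-treated cells, and where it did, 38 of 1051 rose and 13 fell. Named members with such an overlap were SRSF5, RPS9, C1orf63 and U2AF1L4. It was also present in HMG20B, PFDN5, PFKL, PRICKLE4, RNF181, DDIT3, TRIM27, DCAF13, HNRNPC and FAM211A-AS1. The paper states that its retention events cover only a small part of intron retention. Members without such an overlap can therefore also draw reads from unspliced introns.

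By place, the share that passed upon depletion in Cisplatin-treated cells was 2.68% of 3438 members with coding sequence in the extension, 1.82% of 220 in the 5′ UTR, 4.31% of 116 in the 3′ UTR and 8.05% of 298 in exons without coding sequence. The last class started from a median level of 4.72%, and the coding one from 94.9%. Lengths that are a multiple of 3 passed in 2.46% of 1670 members and other lengths in 3.44% of 2440. These shares are descriptions, since level, length and depth differ between the classes.

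Of the 42 factors of 3′ splice site choice, all were measured as genes. Cisplatin in control cells raised 19 and lowered 3, against 28.0% and 27.0% of all 15352 genes, and in depleted cells raised 18 and lowered 5, against 32.4% and 27.8%. Depletion raised 5 and lowered 1 in untreated cells, against 12.8% and 14.6%, and raised 6 and lowered 3 with Cisplatin, against 21.1% and 21.8%. The 5 raised in untreated cells were U2AF1L4 (log2 fold change 0.59, SE 0.12, adjusted p = 0.00306), U2AF2, the large U2AF subunit (0.45), CHERP (0.37), ZRSR2 (0.32) and RBM5 (0.22), and the lowered one is RNF113A. With Cisplatin present, depletion left U2AF1L4 (0.63), CACTIN (0.60), DHX38, a helicase of the second step (0.55), SF3B4 (0.50), CHERP (0.44) and FAM32A (0.23) higher, and CWC27 (-0.44), U2AF1 (-0.34) and GPKOW (-0.25) lower. U2AF1L4 then stood at 12.9 to 18.4 CPM in control and 22.5 to 24.4 in depleted cells. DESeq2 with its own size factors gave 5 higher and 2 lower in untreated and 6 higher and 7 lower in Cisplatin-treated cells. The list's median log2 fold change was 0.199, 0.146, 0.038 and 0.006 in the 4 comparisons, in the order of this paragraph, beside -0.005, 0.056, 0.003 and -0.007 over all genes.

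The genes that hold these members were also compared as genes. Upon depletion with Cisplatin, of 18 host genes of named members that passed, 7 were higher and 1 was lower, beside 21.1% and 21.8% of all genes. In untreated cells 0 of 9 passed in either direction with edgeR, beside 12.8% and 14.6% of all genes. RPL22L1 fell with Cisplatin, from 37.8 to 51.9 CPM to 18.2 to 26.8 in control cells (log2 fold change -0.99, SE 0.16, adjusted p = 0.000186). C1orf63, counted under its current name RSRP1, rose with Cisplatin in depleted cells from 14.9 to 17.0 CPM to 51.5 to 84.5 (log2 fold change 1.97, SE 0.17, adjusted p = 1.37e-06). DDIT3 was at 118 to 205 CPM with Cisplatin in control and 23.4 to 40.1 in depleted cells (log2 fold change -2.21, SE 0.22, adjusted p = 2.52e-05).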

How the data were processed

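RNA was sequenced from 12 A549 libraries, 3 for each of 4 groups, with a stranded poly(A) kit, and the design calls the 3 replicates biological. The authors trimmed reads, aligned them with STAR 2.5.2b to hg19 (base calls by bcl2fastq 2.17, both per the labels' processing notes) and ran rMATS with the Ensembl annotation of GRCh37. The deposited splicing tables give reads of the inclusion and the skipping form per library, not normalized, with form lengths (72 nt for skipping). The deposited gene counts are whole read pairs per gene on its own strand, not normalized by the authors. Their own p-values, FDR and inclusion levels in these tables were not used. The order of the 3 libraries in the splicing tables is not named, so they are called a, b and c, and the order was kept between tables in 99.96% to 100% of events.

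Inclusion and skipping reads were tested with edgeR 4.0.16 (R 4.3.3), with a term for each library, for the form and for form by group. Gene counts were tested with edgeR after TMM scaling and filterByExpr. Benjamini-Hochberg adjustment ran over every event or gene tested. Alternatives were other limits and read minimums, reads not divided by length, DESeq2 1.42.0, 12 libraries in 1 fit, unstranded counts, other scaling, a replicate block and each library left out. limma 3.58.1 was added after the data were seen, with 0.5 read added to each form. The tests were run on simulated counts drawn with the spread that edgeR itself had fitted. Few false calls follow from that setting, so the check cannot show whether this spread is too small. Of 100 events changed by 1 log2 unit of odds, edgeR recovered 13 to 17, and of 100 changed by 2 units 43 to 57. Gene counts of equally numbered control libraries deviated together (r = 0.481, 0.668 and 0.376 between untreated and Cisplatin-treated, across 15352 genes). Between untreated and Cisplatin-treated depleted libraries r was 0.016 to 0.173, and between control and depleted libraries -0.084 to 0.125. The gene fit reported here has no term for the replicate number, and the replicate block is given as an alternative.

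The members and gene lists were chosen with earlier results of these data known. Named events were all called ones, the 5 largest differences per comparison among those past adjusted p with 50 or more reads in each library and no overlap, those past the interaction test, and those past adjusted p in splicing regulators. One event that this rule names is counted but not reported here. Other genes named were chosen after their values were seen. Coordinates are hg19, and site sequences and annotation came from GRCh37 with Gencode v44 lifted to it. Precision is limited by reads per event, at least 10 a library.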

Additional observations from a re-analysis of the deposited data

Results flagged for a closer look

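PCBP2 and C1orf63 stood out because the effect of depletion on their inclusion level differed between untreated and Cisplatin-treated cells by the interaction test (adjusted p = 0.032 for each). PCBP2 differed by 0.409 points upon depletion without (adjusted p = 0.22) and by 5.29 points with Cisplatin. C1orf63 differed by 15.3 points without (adjusted p = 0.365) and by -16.7 with Cisplatin (adjusted p = 0.0313, edgeR). With Cisplatin its control and depleted libraries overlapped, and it missed the threshold in 4 of 6 cases without 1 library (adjusted p up to 0.473).

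In 3 other members the groups did not overlap in either of the comparisons given here, and the mean differences had opposite signs. None of these members passed the interaction test. DDX39B differed by 0.534 points upon depletion in untreated and by -1.36 points in Cisplatin-treated cells, neither past the threshold (adjusted p = 0.758 and 0.145, interaction adjusted p = 0.316). FAM211A-AS1 differed by -2.93 points upon depletion without and by 5.13 with Cisplatin, neither past the threshold (adjusted p = 0.758 and 0.631, interaction adjusted p = 0.845). With Cisplatin its highest control library was at 66.1% and its lowest depleted library at 66.2%. RNF181 differed by 11.1 points with Cisplatin in control and by -26.9 in depleted cells, neither past the threshold (adjusted p = 0.624 and 0.124, interaction adjusted p = 0.217), from 0 to 2 skipping reads a library in all groups except Cisplatin-treated depleted cells.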

How the results depend on the processing

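No paired analysis of the splicing reads was possible because the splicing tables do not number their libraries. With a replicate block, 24, 24, 8 and 10 of the 42 factors of 3′ splice site choice passed, in place of 22, 23, 6 and 9 (here and below in the order Cisplatin in control cells, Cisplatin in depleted cells, depletion in untreated cells, depletion in Cisplatin-treated cells), and no count of this list moved by over 1.5 times under the block.

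Called members numbered 12, 34, 12 and 42 with a limit of 10 points, 8, 20, 4 and 21 with reads not divided by length, 1, 1, 0 and 0 with DESeq2, and 6, 14, 4 and 21 with limma. Without division by length, called rises numbered 5, 20, 4 and 21, and called falls 3, 0, 0 and 0. RPS9 upon depletion in untreated cells then differed by 4.61 points, and the 560 nt event of U2AF1L4 upon depletion with Cisplatin by 9.78. Upon Cisplatin in depleted cells TRIM27 then differed by -1.53 points. PCBP2, not called after division by length, rose by 40.8 points there, so the set called was another one. With 12 libraries in 1 fit Cisplatin in control cells gave 5 called and 52 past adjusted p, and without a read minimum depletion in untreated cells gave 2 called. DESeq2 passed 2, 7, 0 and 7 members (in the last 3 higher and 4 lower) and 0 for the interaction, and limma 61, 169, 69 and 199. The cause was not tested. The 50 results on named members kept their direction under all alternatives run. DESeq2 lost 47 of them, all except PCBP2 and VPS28 upon Cisplatin in depleted cells and RPL22L1 upon Cisplatin in control cells, and limma lost 2, PCBP2 and PFKL as given above.

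Leaving out each library in turn, called members ranged over 1 to 2, 5 to 10, 1 to 3 and 6 to 14, and members past adjusted p over 13 to 21, 63 to 89, 9 to 26 and 59 to 118, the lowest without library c of untreated control, a of untreated depleted, b of untreated depleted and a of Cisplatin-treated control cells. Those past adjusted p also fell by over 1.5 times without a or b of untreated control cells (16 and 15, Cisplatin in control cells), c of untreated depleted or a of Cisplatin-treated depleted cells (69 and 74, Cisplatin in depleted cells), b or c of untreated control or a or c of untreated depleted cells (22, 23, 10 and 14, depletion in untreated cells), and b of Cisplatin-treated control or a, b or c of Cisplatin-treated depleted cells (74, 63, 76 and 74, depletion in Cisplatin-treated cells). The interaction count ranged over 0 to 7, and was 7 without b of Cisplatin-treated control cells, and the factors over 19 to 23, 17 to 25, 1 to 7 and 7 to 15, with 3 and 1 in untreated cells without depleted replicate 1 and 2. RNF113A ranged over -0.35 to -0.28 in untreated cells, where 4 of the omissions missed the threshold (replicates 1 and 3 of control, 1 and 2 of depleted cells), and over -0.24 to -0.13 with Cisplatin. Of the 50 named results, 23 passed in every omission, among them those of SRSF5, PCBP2, VPS28, U2AF1L4, RPL22L1 and DDIT3, and 27 were lost at least once. Members with few reads in all, from 10 a library, have the least precise levels.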
